A study of Homo sapiens with 2 samples.

Results

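Human miRNA hairpins are numbered in the order in which they were reported, and those from hsa-mir-549 to hsa-mir-653 form a block of which a large part was first found in colorectal cells. All table rows whose precursor name carries a number in this range were taken, whatever its letter or copy suffix. They were 137 of 2363 rows, with 130 of 2042 mature names and 108 of 1600 precursors. Of the 105 numbers in the range, 102 had a row. The names miR-1322 and miR-548ai were included because the table also lists them under mir-598 and mir-570.

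Small RNA was sequenced in 2 libraries of hCMEC/D3. These endothelial cells come from human brain capillaries, were immortalised and stand in for the blood-brain barrier in culture. The labels number the libraries replicate 2 and replicate 8 and give no treatment and no further group. They do not say whether the replicates were separate cultures, and the p-values below set the difference between these 2 libraries against counting error alone, so such a difference may be technical.

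Total counts were 2721287 in replicate 2 and 2727675 in replicate 8, after repeated rows of a mature name were reduced to the highest. At these totals 3 counts, the limit that a count of 0 allows, are 1.10 CPM (counts scaled to the library total). The defining endothelial miRNA, miR-126-3p, had 297696 and 313837 counts. Of 10 epithelial markers, those of the colon included, 6 were detected, and their sum was 566 CPM in replicate 2 and 551 CPM in replicate 8. Most of this was miR-192-5p with 1022 and 1134 counts, which kept the sum level, while miR-141-3p had no count. Other epithelial markers were lower in replicate 8: miR-200a-3p had 29 and 3 counts, miR-200b-3p 76 and 27, miR-429 13 and 0, and miR-205-5p 15 and 0. Of 5 blood markers only miR-451a was detected, and the sums were 15.8 and 7.70 CPM. Both mural markers were detected, with sums of 835 and 393 CPM. The neuronal pair summed to 44.1 and 34.1 CPM and the 3 muscle markers to 12.1 and 9.17 CPM.

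A miRNA is cut from a folded hairpin by Drosha in the nucleus and Dicer in the cytoplasm. One strand of the resulting duplex, from the 5p or the 3p arm, is usually kept by an Argonaute protein, and the other is lost. Bases 2 to 8 of the kept strand, the seed, do most of the pairing with target mRNAs, so miRNAs that share a seed are expected to share targets. Many hairpins lie in introns of protein-coding genes and can be released from the host transcript. Library preparation by ligation captures different small RNA sequences with different efficiency, so a level compares libraries better than it compares miRNAs.

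The 6 most abundant mature miRNAs of the block are shown first because they carried nearly all of its counts. They are RefSeq sequences, written 5′ to 3′ with the seed in capitals.
miR-652-3p: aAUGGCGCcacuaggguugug
miR-574-5p: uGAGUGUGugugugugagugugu
miR-629-5p: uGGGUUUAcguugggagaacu
miR-589-5p: uGAGAACCacgucugcucugag
miR-574-3p: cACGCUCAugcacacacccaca
miR-584-5p: uUAUGGUUugccugggacugag
Their 6 seeds differed, and none was shared with another name of the table that had a RefSeq sequence. The low-complexity one is miR-574-5p, in which 21 of 23 bases are G or U. Its sequence had 30 exact matches on the chromosomes of GRCh37, whereas each of the other 5 had 1. How the authors' counting treated reads with several matches is not given, so part of the miR-574-5p count can come from other GU repeats, and this was not tested.

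A name counted as detected where each library had at least 10 counts of it. This held for 22 of the 130 names, or 16.9%, against 26.6% of all names in the table. No count in either library was found for 75 names (57.7%), and 33 had counts but were not detected. The detected names came from 17 precursors with 15 different numbers. In other parts of the numbering, 46.5% of 637 names numbered below mir-549 were detected. The share was 35% of 120 names from mir-1200 to mir-1324 and 19.3% of 275 names from mir-3100 to mir-3999. The block had the highest share of names without any count among these ranges, the others lying between 27.2% and 46.2%. Over all names it was 44.5%. These shares were not tested against each other. Detected names numbered 296 below mir-549, 22 in the block, 42 and 53 in the other 2 ranges, and 543 over all 2042 names. The names outside these ranges were not summarised as a range, but these counts leave them a detected share about as low as the block's. Low detection was thus not particular to the block. With 1 count in both libraries as the limit, 41 names of the block were detected (43.3% of all names were), and with 100 counts 10 (13.9% of all names).

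**Figure D1:**
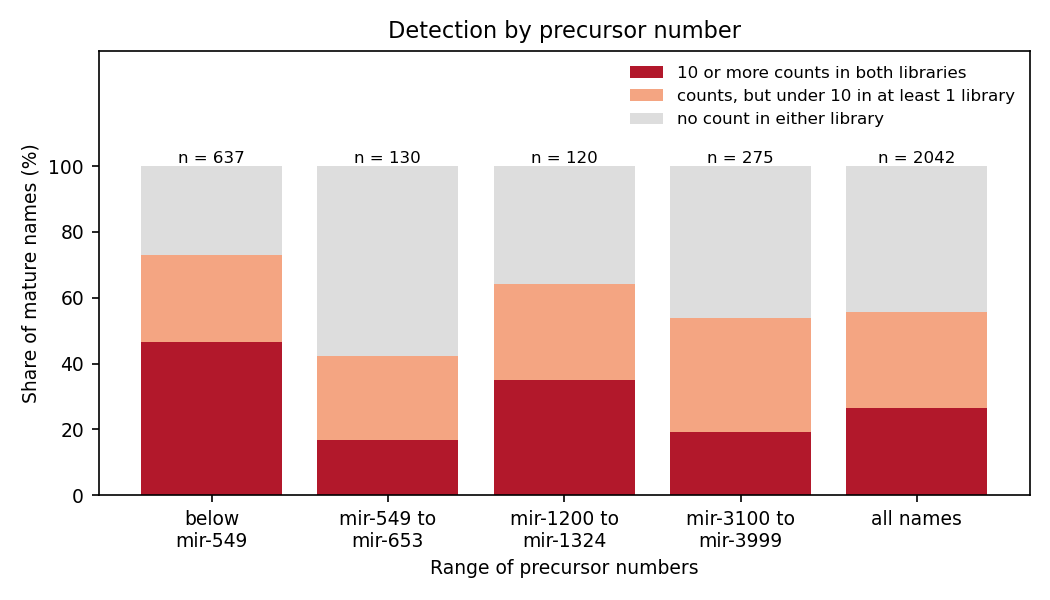
Share of mature names (y axis, percent) in 4 ranges of precursor numbers and in the whole table (x axis), divided into names with 10 or more counts in both libraries, names with fewer, and names with no count. Of the 130 names from mir-549 to mir-653, 16.9% were detected and 57.7% had no count.

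The 130 names held 22890 counts in replicate 2 and 22680 in replicate 8. Their share of all counts was 0.841% in replicate 2, with a 95% Wilson interval from 0.830 to 0.852, and 0.831% in replicate 8, from 0.821 to 0.842, a mean of 0.836% ± 0.00684 (SD, n = 2). The intervals overlapped. The 6 names above, each with 1000 or more counts in both libraries, held 93.6% ± 0.0697 of the block's counts, and their order was the same in both libraries. The level of the sixth was 5.80 times that of the seventh, so that 6 names stood well above the rest. The 108 undetected names together had 156 counts in replicate 2 and 128 in replicate 8.

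**Figure D2:**
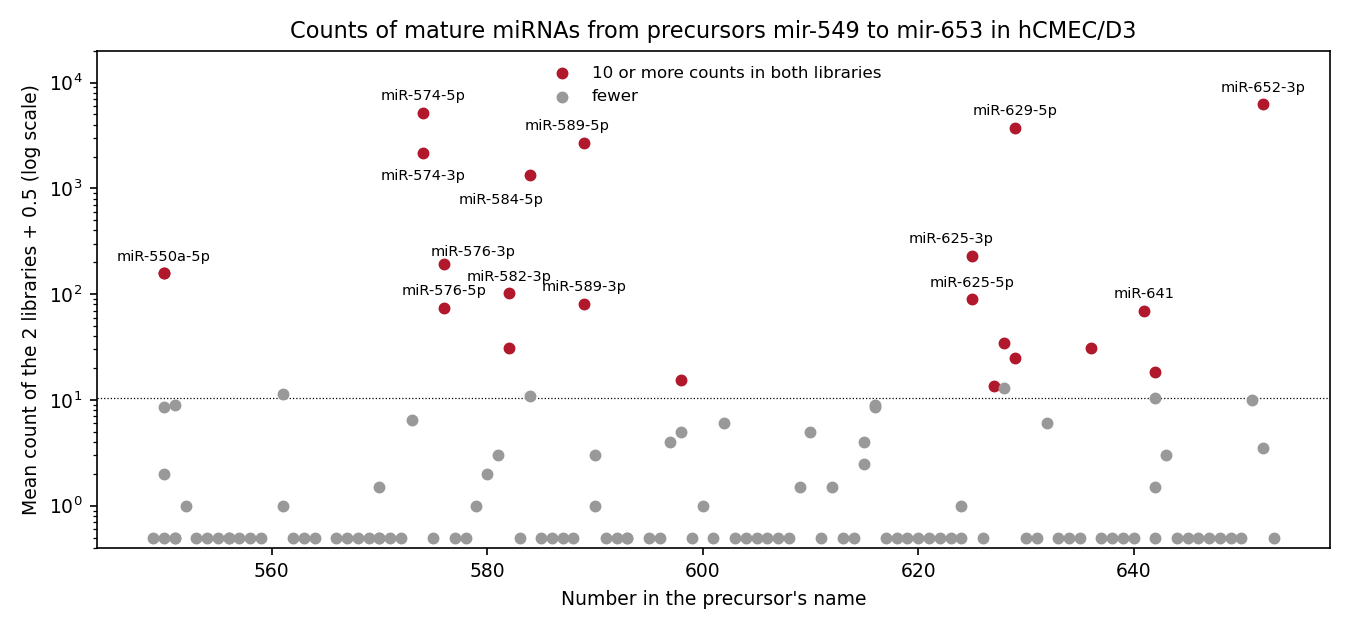
Mean count over both libraries plus 0.5 (y axis, log scale) of each mature name against the number of its precursor (x axis), with detected names in red and the others in grey. The dotted line marks 10 counts; 6 names lie above 1000 counts, and the row at the bottom holds names with no count.

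The most abundant member was miR-652-3p, with 6306 counts in replicate 2 and 6122 in replicate 8. Its level was 2281 ± 51.5 CPM (SD, n = 2), which placed it at rank 53 of all 2042 names. The libraries differed by a log2 ratio (replicate 8 over replicate 2) of -0.05, which did not pass the exact binomial test (adjusted p = 0.174). The hairpin gene MIR652 lies at chrX:109298557-109298654 on the plus strand of GRCh37. It is intronic in all 5 spanning transcripts of TMEM164, a gene for a membrane protein transcribed in the same direction.

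The hairpin of miR-574 gave both the second and the fifth most abundant member. The 5p arm had 5204 and 5161 counts, a level of 1902 ± 14.3 CPM (SD, n = 2). The 3p arm had 2278 and 2030 counts, a level of 791 ± 65.7 CPM. The 5p arm was thus nearly equal in the libraries (log2 ratio -0.02, exact binomial adjusted p = 0.734), and the 3p arm was lower in replicate 8 (log2 ratio -0.17, exact binomial adjusted p = 6.0e-04). With library sizes scaled by TMM (trimmed mean of M values) or by DESeq2's size factors, this turned round: the 3p arm no longer passed (adjusted p = 0.236 and 0.269), and the 5p arm passed as higher in replicate 8, by 0.08 and 0.09 on the log2 scale. MIR574 lies at chr4:38869653-38869748 on the plus strand, in an intron of all 3 spanning transcripts of FAM114A1.

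For miR-629-5p there were 3531 counts in replicate 2 and 3957 in replicate 8, a level of 1374 ± 108 CPM (SD, n = 2). With total counts it was the only member past the threshold that was higher in replicate 8, with a log2 ratio of 0.16 and a 95% interval of 0.10 to 0.23 (adjusted p = 9.8e-06, exact binomial test). It also passed under both of the other scalings, at a log2 ratio of 0.26 in each. MIR629 lies at chr15:70371711-70371807 on the minus strand, in an intron of all 18 spanning transcripts of TLE3, which encodes a corepressor of the Groucho family.

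For miR-589-5p the counts were 2819 and 2566, a level of 988 ± 67.3 CPM (SD, n = 2). Its log2 ratio of -0.14 passed the exact binomial test with total counts (adjusted p = 0.00185) but not with TMM sizes (-0.04, adjusted p = 0.480) or DESeq2 size factors (adjusted p = 0.540). MIR589 lies at chr7:5535450-5535548 on the minus strand, in an intron of FBXL18, which encodes an F-box protein of a ubiquitin ligase.

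The last of the 6, miR-584-5p, had 1295 and 1378 counts, a level of 491 ± 20.7 CPM (SD, n = 2). The log2 ratio was 0.09 with total counts (exact binomial adjusted p = 0.253) and 0.18 with TMM sizes, where it passed (adjusted p = 0.00423). MIR584 lies at chr5:148441876-148441972 on the minus strand, in an intron of all 11 spanning transcripts of SH3TC2. That gene is known for its part in Schwann cell myelination, and the miRNA count says nothing of the level of the host mRNA.

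**Figure D3:**
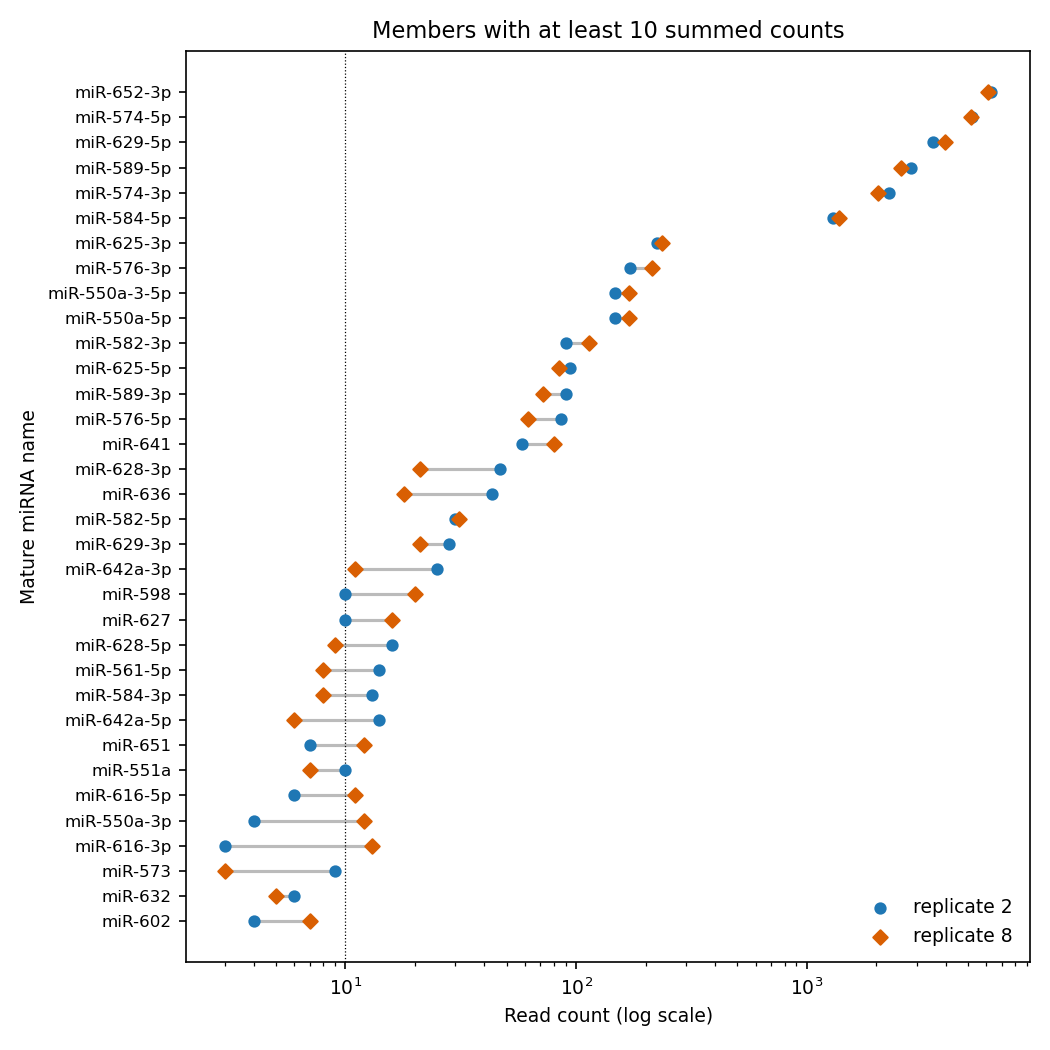
Read counts in replicate 2 (blue circles) and replicate 8 (orange diamonds) on a log axis (x) for the 34 members with at least 10 summed counts, ordered by mean level (y). The symbols of the 6 highest names nearly coincide, and the spread between libraries widens below about 50 counts; the dotted line marks 10 counts.

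The next 9 names, with at least 100 counts summed over both libraries, lay between 25.3 and 84.6 CPM. At the top was miR-625-3p with 225 and 236 counts (84.6 ± 2.71 CPM, SD, n = 2), a miRNA that has been studied as a marker in colorectal cancer. Its partner miR-625-5p had 94 and 84 counts (32.7 ± 2.65 CPM). MIR625 lies at chr14:65937820-65937904 on the plus strand, in an intron of all 12 spanning transcripts of FUT8, which encodes the core fucosyltransferase. Both arms had 2 exact matches in GRCh37.

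Both arms of miR-576 were also found, the 3p arm with 171 and 214 counts (70.6 ± 11.0 CPM, SD, n = 2) and the 5p arm with 86 and 62 (27.2 ± 6.27 CPM). MIR576 lies at chr4:110409854-110409951 on the plus strand, in an intron of SEC24B, a subunit of the coat of vesicles that leave the endoplasmic reticulum. The arms moved in opposite directions: the log2 ratio was 0.32 for the 3p arm (exact binomial adjusted p = 0.0848) and -0.47 for the 5p arm (adjusted p = 0.122). Neither passed with total counts, and the 3p arm passed with TMM sizes (adjusted p = 0.0181). The 3p sequence had 4 exact matches in GRCh37.

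A pair of names, miR-550a-5p and miR-550a-3-5p, had the same counts, 147 in replicate 2 and 169 in replicate 8 (58.0 ± 5.61 CPM, SD, n = 2). Their sequences are shown because they overlap almost wholly.
miR-550a-5p: aGUGCCUGagggaguaagagccc
miR-550a-3-5p: aGUGCCUGagggaguaagag
The second is the first 20 bases of the first, which has 3 more, so these names are not separate measurements. Their hairpins mir-550a-1, mir-550a-2 and mir-550a-3 all lie on chromosome 7, at chr7:30329410-30329506 in an intron of the ubiquitin ligase gene ZNRF2, at chr7:32772593-32772689 in its pseudogene ZNRF2P1 and at chr7:29720350-29720444 in ZNRF2P2. The table gave the same counts for mir-550a-1 and mir-550a-2 and lower ones, 42 and 46, for miR-550a-3-5p from mir-550a-3. With repeated rows summed, the levels were 99.3 CPM for miR-550a-5p and 113 CPM for miR-550a-3-5p, over 1.5 times the values above.

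The remaining names of this tier were miR-582-3p, miR-589-3p and miR-641. The first had 90 and 114 counts (37.4 ± 6.17 CPM, SD, n = 2), from MIR582 at chr5:58999432-58999529 on the minus strand, in an intron of the cAMP phosphodiesterase gene PDE4D. The second, the lesser arm of miR-589, had 90 and 72 counts (29.7 ± 4.72 CPM). For miR-641 the counts were 58 and 80 (25.3 ± 5.67 CPM), from MIR641 at chr19:40788450-40788548 on the minus strand, in an intron of all 13 spanning transcripts of the kinase gene AKT2. No difference between the libraries passed the test for any of these 3 under any of the scalings.

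A further 19 names had 10 to 99 summed counts, and 7 of them reached 10 in both libraries. These were miR-628-3p (47 and 21 counts), miR-636 (43 and 18), miR-582-5p (30 and 31), miR-629-3p (28 and 21), miR-642a-3p (25 and 11), miR-598 (10 and 20) and miR-627 (10 and 16). Of these only miR-628-3p and miR-636 passed the test between the libraries, both lower in replicate 8. The first lies in an intron of CCPG1, a receptor for the breakdown of endoplasmic reticulum, at chr15:55665138-55665232. The second lies at chr17:74732532-74732630 within the splicing factor gene SRSF2, where 6 of 8 spanning transcripts have an exon. Fragments of the SRSF2 mRNA and the miRNA cannot be told apart from the counts. On the opposite strand it overlaps MFSD11. The hairpin of miR-642a lies in an intron of the incretin receptor gene GIPR at chr19:46178186-46178282, and that of miR-627 in an intron of VPS39 at chr15:42491768-42491864.

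The other 12 of these names were near the limit. In replicate 2 alone 10 counts were reached by miR-628-5p (16 and 9), miR-561-5p (14 and 8), miR-642a-5p (14 and 6), miR-584-3p (13 and 8) and miR-551a (10 and 7). In replicate 8 alone they were reached by miR-616-3p (3 and 13), miR-550a-3p (4 and 12), miR-651 (7 and 12) and miR-616-5p (6 and 11). In neither library were they reached by miR-573 (9 and 3), miR-632 (6 and 5) and miR-602 (4 and 7). Of these 12, only miR-616-3p had a 95% interval of the log2 ratio that left out 0 (0.25 to 4.56). It did not pass the exact binomial test with total counts (log2 ratio 1.94, adjusted p = 0.0594) but passed with TMM sizes (adjusted p = 0.0350) and DESeq2 size factors (adjusted p = 0.0353).

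Hairpins with a mouse counterpart of the same number were listed as a group of 9. Of these, 4 gave a detected name (mir-574, mir-582, mir-598 and mir-652), against 13 of the other 99 hairpins. Among all hairpins of the table with a known position, 375 gave a detected name and 923 did not. The 13 count mir-550a-1, mir-550a-2 and mir-550a-3 singly, and miR-598 just reached the limit with 10 counts in replicate 2. The difference was not tested, and the list was chosen with earlier results of these data known. Both arms of miR-590 were almost absent, with 4 and 1 counts for the 3p arm and 1 and 0 for the 5p arm. Its hairpin lies in an intron of EIF4H, which encodes a translation initiation factor. For miR-615, which lies within the HOXC cluster, the 3p arm had 6 and 1 counts and the 5p arm 4 and 0. No count was found for miR-551b-5p, miR-551b-3p, miR-592 or miR-653.

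Of 8 listed hairpins that lie in repeats or in other well-known genes, 1 gave a detected name, miR-636. The list, chosen with earlier results known, does not hold all such hairpins. It leaves out mir-611, which overlaps an exon in all 7 spanning transcripts of TMEM258. It includes mir-638, which is intronic in all 8 spanning transcripts of DNM2, as most hairpins of the block are in their hosts. Among all hairpins of the table with a known position, 375 gave one and 923 did not. No count was found for miR-566 and miR-619, listed as Alu sequences, for miR-603 in a MADE1 element, for miR-638 in DNM2 or for miR-650 in the immunoglobulin lambda locus. For miR-570-3p, also from MADE1, and for miR-612 in the nuclear RNA NEAT1 there were 2 counts in replicate 2 and none in replicate 8. A count of 0 allows a level of up to 1.10 CPM in either library.

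Seeds linked few of the detected members to other expressed miRNAs. A RefSeq sequence was matched for 105 of the 130 names, 18 of them detected. These 18 had 17 seeds, the one shared pair being miR-550a-5p and miR-550a-3-5p. A seed shared with any other name, detected or not, was held by 3 of the 18, against 166 of the 435 detected names with a sequence in the whole table. The opposite case was miR-590-5p, whose seed is that of the abundant miR-21-5p, as the sequences show.
miR-590-5p: gAGCUUAUucauaaaagugcag
miR-21-5p: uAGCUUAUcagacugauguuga
The table gave 1 and 0 counts for miR-590-5p and 191308 and 230231 counts for miR-21-5p, so this seed was present almost only through miR-21-5p. Besides miR-642b-3p, described next, the others with no count whose seed belonged to a detected name were miR-559 (the seed of miR-548ap-5p, 47 and 39 counts), miR-620 (miR-1270, 137 and 115 counts) and miR-631 (miR-3661, 99 and 110 counts).

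Close relatives within the block were not equally present. The seeds of miR-551a and miR-551b-3p are the same, and so are those of miR-642a-3p and miR-642b-3p.
miR-551a: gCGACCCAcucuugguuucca
miR-551b-3p: gCGACCCAuacuugguuucag
miR-642a-3p: aGACACAUuuggagagggaacc
miR-642b-3p: aGACACAUuuggagagggaccc
The first pair differs at 4 of 21 positions and the second at 1 of 22. In both pairs counts were listed for one name only, 10 and 7 for miR-551a and 25 and 11 for miR-642a-3p, and miR-551b-3p and miR-642b-3p had none. These are low counts, and how reads were assigned between sequences that differ at 1 position is not stated.

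Of the 18 detected members with a sequence, 8 began with U (44.4%), the base that Argonaute proteins favour at the 5′ end. The same held for 18 of the 87 undetected members (20.7%) and for 11 of the 62 members without a count (17.7%). Over the whole table the shares were 42.3% of 435 detected and 32.8% of 1281 undetected names. The median GC content was 48.9% for the detected members and 47.6% for those without a count. Over the whole table it was 52% for detected and 50% for undetected names. A single exact match in GRCh37 was found for 12 of the 18 and for 49 of the 62. The same held for 350 of the 435 detected names of the whole table and for 1400 of all 1716 names with a sequence. These are descriptions without a test.

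Most hairpins of the block lie within protein-coding genes, whether they were expressed or not. A position was found for 102 of 108, and 78 of these (76.5%) lie within a protein-coding gene on the same strand. Of the 17 detected hairpins 15 did (88.2%), and 14 of these 15 were intronic in every spanning transcript of the host, the exception being mir-636. Of the 85 undetected ones with a position 63 did (74.1%), and 11 lay outside any gene on their strand, as no detected one did. Over all positioned hairpins of the table the shares were 53.3% of 375 detected and 50.3% of 923 undetected ones.

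Use of the 2 arms could be measured for 9 hairpins whose arms together had 50 or more counts per library. For 5 hairpins, 1 arm held over 90% in both libraries, against 65.3% of the 176 such hairpins in the whole table. The 5p arm held 99.2% and 99.5% for miR-629 in replicates 2 and 8, 99.01% and 99.42% for miR-584, 96.9% and 97.3% for miR-589, and 97.4% and 93.4% for miR-550a. The reverse was found for miR-652, whose 5p arm had 5 counts of 6311 and 1 of 6123. In the remaining 4 both arms were kept in quantity. For miR-574 the 5p share was 69.6% in replicate 2, with a 95% Wilson interval from 68.5 to 70.6, and 71.8% in replicate 8, from 70.7 to 72.8, and since the matches of its 5p arm are many, this share may hold reads from elsewhere. For miR-625 it was 29.5% and 26.3%, for miR-582 25% and 21.4%, and for miR-576 33.5% and 22.5%. The Wilson intervals of miR-576 did not overlap (28.0 to 39.4 and 17.9 to 27.7), nor did those of miR-574. In no hairpin did the more abundant arm change between the libraries.

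**Figure D4:**
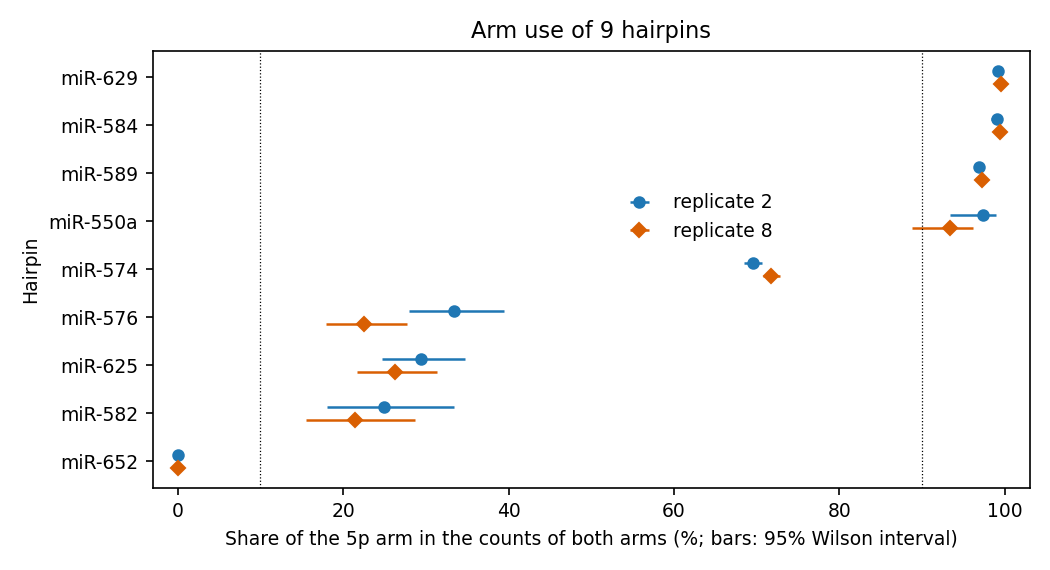
Share of the 5p arm in the counts of both arms (x axis, percent) in replicate 2 (blue circles) and replicate 8 (orange diamonds), with 95% Wilson intervals, for 9 hairpins (y axis). Dotted lines mark 10% and 90%; 5 hairpins lie outside them in both libraries, and miR-574, miR-576, miR-625 and miR-582 lie between.

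Between the libraries, 34 members had enough counts for the exact binomial test, and 5 of them (14.7%) passed after adjustment over all 695 names tested, against 34.2% of all names. Of the 5, miR-629-5p was higher in replicate 8 (10.8% of all names were) and miR-574-3p, miR-589-5p, miR-628-3p and miR-636 were lower (23.5% of all names were). This split rests on the scaling: with TMM sizes or DESeq2 size factors 7 members passed, 5 of them higher and 2 lower. Over all names 32.7% passed with TMM sizes, 16% as higher and 16.7% as lower, and 32.2% with DESeq2 size factors, 16% as higher and 16.3% as lower. These scalings raise every log2 ratio by 0.10, near the size of the median of -0.10 over the 367 names with at least 100 summed counts. The 3 members that passed in the same direction under all 3 scalings were miR-629-5p, miR-628-3p and miR-636.

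The abundant members differed little in size. With total counts, all 15 members with at least 100 summed counts had a log2 ratio within 0.5 of 0. So had 299 of the 367 such names in the table (81.5%), and the median absolute log2 ratio was 0.17 against 0.21. With TMM sizes or DESeq2 size factors miR-641 lay outside this limit, at 0.56 in each. For miR-628-3p the log2 ratio was -1.15 (95% interval -1.98 to -0.39, exact binomial adjusted p = 0.00605), and for miR-636 it was -1.24 (-2.14 to -0.44, exact binomial adjusted p = 0.00524). The mural markers, miR-451a and the epithelial markers miR-200a-3p, miR-200b-3p, miR-429 and miR-205-5p were also lower in replicate 8, and their part in these differences was not tested. Not all epithelial markers were lower: miR-192-5p and miR-215 were higher in replicate 8. Chi-square per degree of freedom, which is 1 where libraries differ by counting error alone, was 4.03 over the 34 members and 60.5 over all 695 names, and it grows with the counts. Across the 34 members Pearson's r between the libraries was 0.978 on log2(CPM + 1) and Spearman's rho 0.899, as a description over names of 1 pair of libraries.

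**Figure D5:**
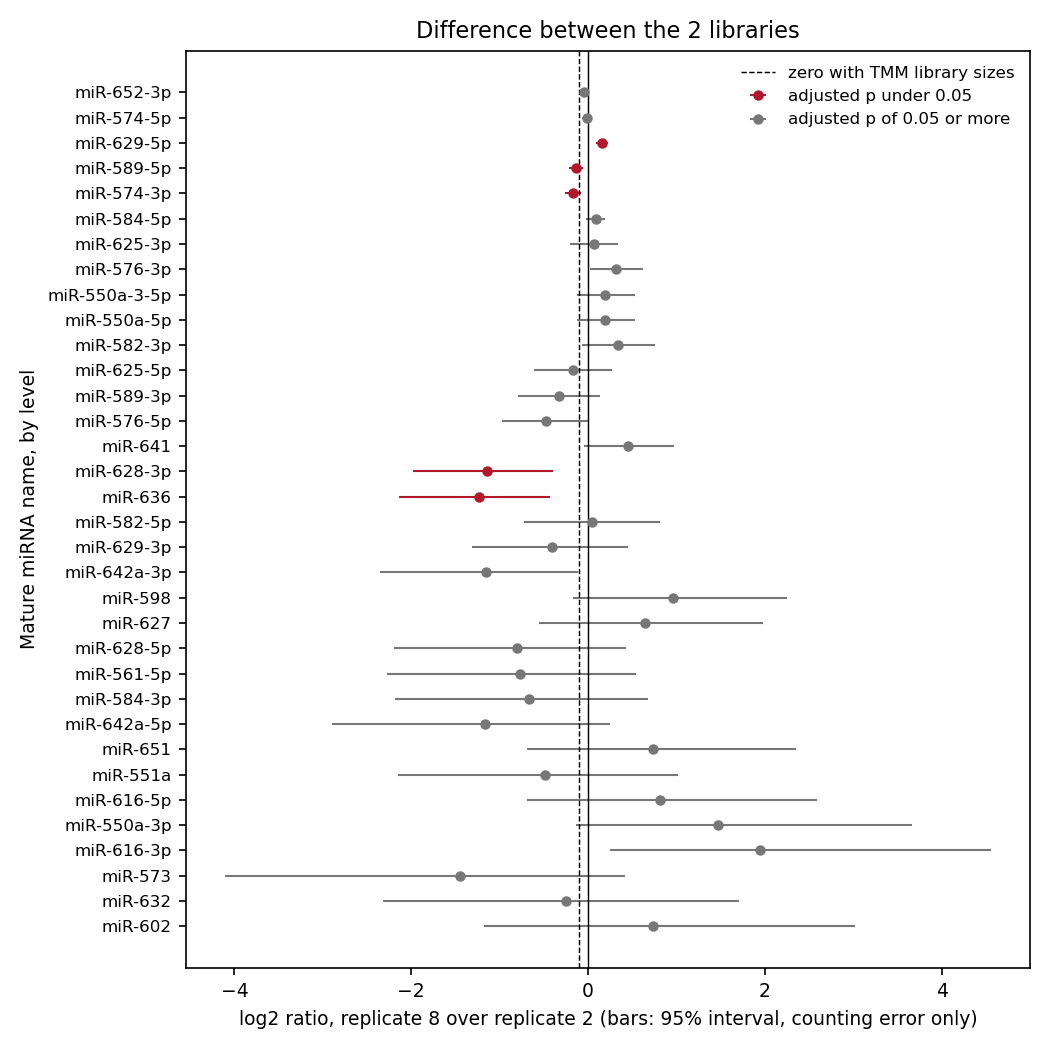
Log2 ratio of replicate 8 over replicate 2 (x axis) with 95% intervals for counting error, for the 34 members with at least 10 summed counts in order of level (y axis). The 5 members in red had an adjusted p under 0.05 with total counts; the dashed line is where 0 lies with TMM library sizes.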

How the data were processed

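Small RNA libraries of hCMEC/D3 were made with a ligation-based kit, PCR and gel size selection, per the labels' protocols. The submitters' processing notes name CASAVA 1.9, FastQC, cutadapt, Bowtie 0.12.7 and the hg19 build. The counter and the miRBase release are not given in the sources used here. The authors deposited raw read counts for each pair of mature and precursor names, and RPM values (reads scaled to a library total), which are those counts divided by 1 constant per library.

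A mature name with several rows was taken from its row of highest mean count. CPM were computed on the resulting totals of 2721287 (replicate 2) and 2727675 (replicate 8). With 1 group, edgeR's quasi-likelihood test could not be run. Instead the libraries were compared over all 695 names with at least 10 summed counts by a two-sided exact binomial test. The threshold was 0.05 after Benjamini-Hochberg adjustment. The test was also run on simulated counts with known changes and no variation beyond counting error. Such counts cannot show how it behaves where libraries vary by more than counting error, as these 2 did. Log2 ratios used 0.5 added counts. TMM sizes came from edgeR 4.0.16 and size factors from DESeq2 1.42.0, and the tests used scipy 1.17.1. Intervals are 95% and cover counting error only.

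Hairpin positions and overlaps came from GENCODE lifted to GRCh37, the assembly of the build in the notes. Mature sequences came from RefSeq (GRCh38.p14) and were searched for, on both strands, in GRCh37. Every member may be named, with full values from 100 summed counts and names and counts from 10. The members, lists and rules were chosen with earlier results of these data known.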

Additional observations from a re-analysis of the deposited data

How the results depend on the processing

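The number of detected members depended on the count limit: 41 names with at least 1 count in both libraries and 10 with at least 100, against 22. It was 31 with 10 counts in either library, 23 with repeated rows summed, 25 over table rows, and 26 or 27 in replicate 8 or replicate 2 alone. The summed share of counts, 0.836%, was 0.728% with repeated rows summed, 0.725% on the deposited RPM scale and 0.942% with miR-126-3p left out of the total. The denominator changed in each of these settings. In the first 2 the repeated rows of member names, such as those of miR-550a, also added to the members' own sum. The members that differed between the libraries numbered 5 of 34 with total counts. When only names with at least 100 summed counts were tested, 3 of 15 members passed. Of these, 1 was higher in replicate 8 and 2 were lower, against 76 and 136 of all 367 such names. This limit leaves out miR-628-3p and miR-636. With repeated rows summed 6 passed (2 higher and 4 lower, against 76 and 176 of all names). The number tested in that setting is not given, so these counts carry no share. With a minimum of 1 count 6 passed (1 higher and 5 lower, against 71 and 153 of all names). That minimum leaves out 75 of the 130 members and 908 of all 2042 names. A dominant arm was found in 4 of 5 hairpins with at least 500 counts, and in 5 of 9 with a limit of 80% or in each library alone. Single libraries as alternatives were added after seeing the data. With repeated rows summed, 10 of the 15 levels given in full moved by more than 1 SD, all but those of the miR-550a pair by less than 1.5 times. No paired analysis was possible because the study has 1 group. Levels under 1.10 CPM (3 counts) cannot be told from 0 in either library.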
